A study of Mus musculus with 6 samples.

Results

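The subject here is a group of 10 mouse genes of the type I interferon response, Rsad2, Isg15, Ifit1, Ifit2, Ifit3, Irf7, Usp18, Cmpk2, Oasl1 and Zbp1. They were taken by symbol from a fixed list, and all 10 were found among the 27933 distinct gene symbols of the 6 deposited matrices. The study placed 4T1 breast tumours of Balb/c mice into 2 groups of 3 Drop-seq libraries each. Drop-seq isolates cells in droplets and tags each captured RNA molecule with a unique molecular identifier (UMI), so that 1 UMI stands for 1 captured molecule. In the FVIO-MHT group, iron oxide particles called FVIOs (per the series title, ferrimagnetic vortex nanorings) were injected at the tumour site at 0.1 mg per cm3 of tumour and heated by an alternating magnetic field of 365 kHz for 10 min. The PBS group received phosphate-buffered saline. Tumours of both groups were taken at 24 h, and red blood cells were lysed during dissociation. The labels carry the same protocol text for all 6 samples and do not say whether PBS tumours were placed in the field, nor whether the 3 libraries of a group came from separate mice. All p-values below therefore measure the spread between libraries, which may be partly technical. The labels give neither the age of the mice nor the number of 4T1 cells injected.

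Type I interferons are secreted proteins that bind the receptor pair Ifnar1 and Ifnar2 on almost every nucleated cell. Signalling from the receptor leads transcription factors to bind a short DNA motif, the interferon-stimulated response element (ISRE), in front of target genes. Irf7 is a transcription factor that drives further interferon production, and Zbp1 senses nucleic acids in the Z conformation and can start cell death. Isg15 is a ubiquitin-like protein attached to other proteins, and Usp18 removes it and also dampens signalling at the receptor. Rsad2, also called viperin, makes a modified nucleotide that ends viral RNA chains. Cmpk2 is a mitochondrial nucleotide kinase. Ifit1, Ifit2 and Ifit3 are related tetratricopeptide-repeat proteins, of which Ifit1 binds viral RNA. Oasl1 lacks the enzyme activity of its oligoadenylate synthetase relatives and in mouse restrains translation of Irf7.

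Promoter windows are shown so that the response element can be read in the genes that hold it. RefSeq windows of the 250 bases before the transcription start (build GRCm38.p6) matched 8 of the 10 genes by symbol, all but Usp18 and Zbp1. They were searched on both strands for GAAANNGAAA, the core of the ISRE, which reads TTTCNNTTTC on the opposite strand. Of the 8 genes, 4 held a match, against 978 of all 32851 windows (2.98%). The stretches around the matches are printed below in the direction of transcription, with the matched letters in capitals.
Rsad2, chr12:26456533-26456602, minus strand: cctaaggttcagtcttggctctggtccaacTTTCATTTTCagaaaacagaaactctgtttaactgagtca
Isg15, chr4:156200845-156200926, minus strand: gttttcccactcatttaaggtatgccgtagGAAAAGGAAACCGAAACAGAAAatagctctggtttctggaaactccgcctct
Ifit1, chr19:34640755-34640843, plus strand: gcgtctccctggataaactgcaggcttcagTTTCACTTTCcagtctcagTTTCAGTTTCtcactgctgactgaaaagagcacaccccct
Ifit3, chr19:34583343-34583446, plus strand: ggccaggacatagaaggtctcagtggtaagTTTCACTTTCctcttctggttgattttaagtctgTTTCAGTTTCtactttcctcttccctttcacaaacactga
The Rsad2 window held 1 match, 120 to 111 bases before the start. Isg15 held 3 overlapping matches, from 78 to 57 bases before the start. Ifit1 held 2, at 104 to 95 and 85 to 76 bases, and Ifit3 held 2, at 156 to 147 and 122 to 113 bases. At least 2 matches occurred in 59 of all windows (0.18%). The windows of Ifit2, Irf7, Cmpk2 and Oasl1 held none, which says only that these letters are not in those windows.

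In the genome (GENCODE M21 annotation, GRCm38), Rsad2 lies at chr12:26442746-26456452 on the minus strand and Cmpk2 beside it at chr12:26469204-26479837 on the plus strand. Ifit2 at chr19:34550694-34576419, Ifit3 at chr19:34583531-34588731 and Ifit1 at chr19:34640871-34650009 stand in a row on the plus strand. Isg15 lies at chr4:156199424-156200818, Irf7 at chr7:141262706-141266481, Usp18 at chr6:121245906-121270917, Oasl1 at chr5:114923240-114937915 and Zbp1 at chr2:173206612-173218923. Between Ifit3 and Ifit1 lies Ifit3b, a near copy of Ifit3 at chr19:34607970-34613401. Of the 25-base words in the annotated Ifit3 transcript, 66.1% also occurred in Ifit3b, and in the last 300 bases, which a 3′ method reads, 25.7% did. The matrices gave 119 UMIs to Ifit3 and 53 to Ifit3b, and the values of Ifit3 are uncertain for that reason. Irf7 overlaps Phrf1, Usp18 overlaps Gm44148 and Oasl1 overlaps Gm13822 on opposite strands. The sources used here do not say whether counting took the strand into account.

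Each matrix held 5000 barcodes. Barcodes with at least 200 detected genes were kept, 332, 1049 and 2325 in FVIO-MHT replicates 1, 2 and 3 against 1080, 1462 and 482 in PBS replicates 1, 2 and 3, or 6730 in all. They held 181213 to 1747110 UMIs per library, with a median of 400 to 834 UMIs per barcode. FVIO-MHT replicate 1 stood apart: it had the fewest UMIs in kept barcodes, and 79.8% of its kept barcodes were neutrophil-like. In it 8 of 10 tumour epithelial markers were at 0. The other 2, Spint2 and Lcn2, brought the list to 7494 CPM in sum, the highest of the 6 libraries. Of these 1358 UMIs, 1344 lay in neutrophil-like barcodes. PBS replicates 2 and 3 shared 33 barcode sequences, of which 28 fell in the same cell class in both. These barcodes held 1.09% of the UMIs of PBS replicate 2 and 16.9% of those of PBS replicate 3. Leaving them out changed no call on the 10 genes and gave a log2 fold change of 2.69 for Rsad2 and 2.01 for Isg15 in whole libraries.

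All 10 genes were captured. Over the kept barcodes Isg15 gave 3066 UMIs, Rsad2 1715 and Zbp1 617. Irf7 gave 328, Ifit2 255, Ifit1 240, Oasl1 158, Usp18 130, Ifit3 119 and Cmpk2 101. The interferons themselves were nearly out of reach at this depth. Of 19 interferon genes in the matrices, only Ifnb1 (4 UMIs, 2 each in PBS replicates 1 and 2), Ifne (1), Ifnl3 (3, all in PBS replicate 1) and the type II interferon Ifng (22) had any UMI in kept barcodes, and the other 15 were at 0.

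Whole libraries, all kept barcodes summed, were compared first. In these sums, more cells of a type and more RNA per cell cannot be told apart. Rsad2 had 386, 665 and 465 CPM (UMIs per 1000000 UMIs of the same barcodes) in FVIO-MHT replicates 1, 2 and 3, against 123, 43.1 and 97.7 CPM in PBS replicates 1, 2 and 3. Every FVIO-MHT library lay above every PBS library. The means were 505 ± 144 CPM in FVIO-MHT and 87.8 ± 40.7 CPM in PBS (SD, n = 3 each). The log2 fold change was 2.75 with an SE of 0.57. edgeR's quasi-likelihood test gave an unadjusted p of 0.00103 and an adjusted p of 0.878 (Benjamini-Hochberg over all genes tested).

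Isg15 had 866, 1257 and 517 CPM in the FVIO-MHT libraries and 236, 298 and 236 CPM in the PBS libraries. The groups did not overlap, the means being 880.1 ± 369.8 and 257 ± 35.9 CPM (log2 fold change 2.05 ± 0.59, unadjusted p = 0.00717 and adjusted p = 0.878 by edgeR). Its deconjugating enzyme Usp18 had 5.52, 25.5 and 23.5 CPM in FVIO-MHT libraries and 7.95, 27.5 and 14.9 CPM in PBS libraries, with overlap (log2 fold change 0.29 ± 0.57).

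Among the Ifit genes, Ifit1 had 33.1, 72.2 and 54.9 CPM in FVIO-MHT libraries and 29.5, 22.6 and 10.6 CPM in PBS libraries, without overlap (log2 fold change 1.49 ± 0.47, unadjusted p = 0.0116 by edgeR). Ifit2 had 5.52, 68.8 and 49.2 CPM in FVIO-MHT libraries and 27.3, 40.9 and 12.7 CPM in PBS libraries (log2 fold change 0.74 ± 0.61). Ifit3 had 0, 31.1 and 21.2 CPM in FVIO-MHT libraries and 15.9, 19.4 and 8.50 CPM in PBS libraries (log2 fold change 0.48 ± 0.62). Ifit2 and Ifit3 overlapped between the groups through FVIO-MHT replicate 1, the lowest of the 6 libraries for both. In that library a count of 0 allows up to 16.6 CPM, the level that 3 UMIs would give. Its Ifit1 value of 33.1 CPM also rests on few UMIs. That value is not set apart from the 29.5 CPM of PBS replicate 1 beyond counting error.

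The regulators split. Oasl1 had 71.7, 54.4 and 24.6 CPM in FVIO-MHT libraries and 15.9, 17.8 and 12.7 CPM in PBS libraries, without overlap (log2 fold change 1.85 ± 0.63, unadjusted p = 0.0175 by edgeR). Irf7 had 11, 113 and 56.1 CPM in FVIO-MHT libraries and 35.2, 38.8 and 48.8 CPM in PBS libraries (0.71 ± 0.56). Zbp1 had 27.6, 186 and 44.6 CPM in FVIO-MHT libraries and 81.8, 134 and 95.6 CPM in PBS libraries (log2 fold change -0.14 ± 0.63). For Irf7 and Zbp1 the FVIO-MHT libraries held both the lowest and the highest of the 6 values. Cmpk2 had 5.52, 28.9 and 14.9 CPM in FVIO-MHT libraries and 9.09, 20.5 and 4.25 CPM in PBS libraries, also with overlap (log2 fold change 0.61 ± 0.63).

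**Figure D1:**
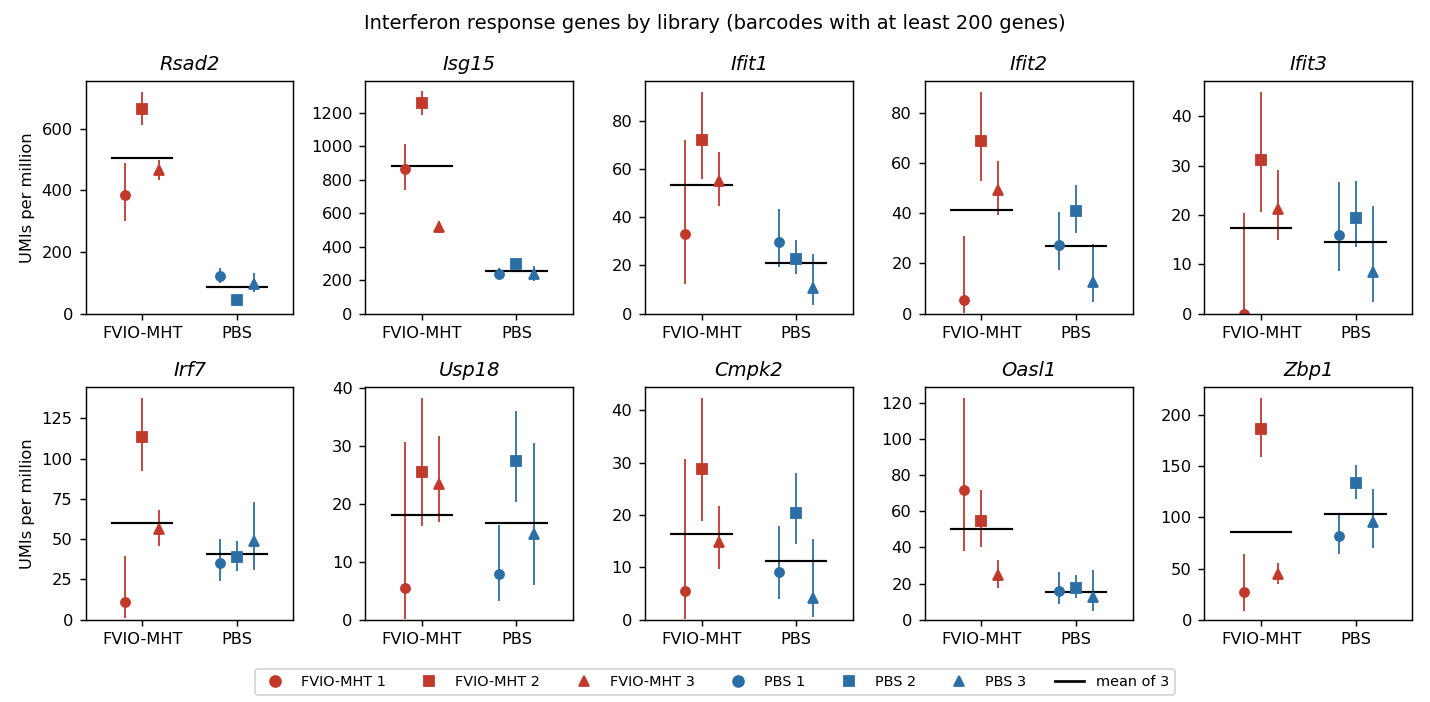
CPM of each of the 10 genes in kept barcodes (linear axis from 0) for the 3 FVIO-MHT libraries, left, and the 3 PBS libraries, right. Each point is 1 library with its exact Poisson 95% interval (counting error only) and the line is the mean. Rsad2, Isg15, Ifit1 and Oasl1 have every FVIO-MHT point above every PBS point, and the other 6 genes overlap.

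In whole libraries, then, none of the 10 genes passed an adjusted p of 0.05, nor did any of the 8603 genes tested (0%). At an unadjusted p under 0.05, 4 of the 10 were higher in FVIO-MHT, against 3.68% of all genes tested, and 451 genes (5.24%) reached it in either direction. The same 4 of 10 had every FVIO-MHT library above every PBS library, against 3.17% of all genes. By DESeq2, Rsad2 (adjusted p = 1.67e-04) and Isg15 (adjusted p = 0.013) passed with 86 genes in all. Over the 16 alternative settings the log2 fold change of Rsad2 ran from 1.97 to 3.03 and its adjusted p from 1.67e-04 to 1.00.

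The libraries also differed in which cells they held. Neutrophil-like barcodes made up 79.8%, 37.8% and 0.43% of the kept barcodes in FVIO-MHT replicates 1, 2 and 3, against 6.11%, 0.616% and 1.66% in PBS replicates 1, 2 and 3. The 12 neutrophil markers summed to 89800.4, 14529 and 531 CPM in the FVIO-MHT libraries and to 3035, 570.0 and 816 CPM in the PBS libraries, with 11 or 12 of 12 markers detected in each library and Ly6g at 0 in FVIO-MHT replicate 3 and PBS replicate 3. With neutrophil-like barcodes left out, Rsad2 averaged 361 ± 117 CPM in FVIO-MHT and 66.9 ± 24.9 CPM in PBS, and Oasl1 averaged 23.7 ± 3.04 and 14.6 ± 3.60 CPM, both without overlap. Isg15 then averaged 456 ± 221 CPM in FVIO-MHT and 242 ± 52.1 CPM in PBS, and Ifit1 35.1 ± 30.4 and 19.7 ± 7.97 CPM, both with overlap. In those sums 2 of the 10 genes had every FVIO-MHT library above every PBS library, against 5.61% of the same 8603 genes. FVIO-MHT replicate 1 lost 265 of its 332 kept barcodes here. Its Oasl1 value of 26.6 CPM therefore rests on very few UMIs. The Oasl1 non-overlap is thus not shown beyond counting error.

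The UMIs of these genes came from different cells in each library. Neutrophil-like barcodes gave 78.6% of the Rsad2 UMIs and 94.9% of the Isg15 UMIs of FVIO-MHT replicate 1, where they held 79.3% of all UMIs. In FVIO-MHT replicate 2 they held 18.9% of all UMIs but gave 72.0% of the Rsad2 and 58.5% of the Isg15 UMIs. In FVIO-MHT replicate 3, macrophage/monocyte-like barcodes held 12.8% of all UMIs and gave 45.1% of the Rsad2 and 37.1% of the Isg15 UMIs. In PBS replicate 2, tumour epithelial-like barcodes held 83.1% of all UMIs and gave 75.6% of the Isg15 UMIs but 45% of the Rsad2 UMIs. PBS replicate 1 drew 44.4% of its Rsad2 UMIs from neutrophil-like barcodes holding 3.17% of all UMIs and 29.6% from endothelial-like barcodes holding 0.821%.

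The cell classes were rebuilt by clustering, with the 10 genes and the other interferon-related genes left out of the genes used to cluster, and were named from marker genes. Of 17 clusters, 15 received a name. The macrophage/monocyte-like class was led by C1qc, C1qa, Ccr2 and Lyz2, the neutrophil-like class by S100a8, S100a9, Cxcr2 and Retnlg in its 2 clusters, and the tumour epithelial-like clusters by genes such as Krt18, Epcam and Cldn4. The larger of the 2 clusters without a name held 1201 barcodes, 1081 of them from FVIO-MHT replicate 3. It was led by haemoglobin genes together with epithelial genes. Class names rest on this rebuilding and not on an annotation by the authors. Since the classes were drawn from the same cells, levels by class are a description without a test.

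Levels by class were averaged over the libraries with at least 20 barcodes of the class, which differ from class to class, so the order of the means mixes class and library. Rsad2 averaged 1543 ± 1083 CPM in neutrophil-like (3 libraries), 840 ± 867 CPM in endothelial-like (2 libraries) and 630.2 ± 619 CPM in macrophage/monocyte-like barcodes (5 libraries). Fibroblast-like barcodes averaged 109 ± 141 CPM (4 libraries), T and NK-like barcodes 88.7 ± 74.9 CPM (4 libraries) and tumour epithelial-like barcodes 31.8 ± 17.1 CPM (5 libraries). The first 3 classes lay within each other's spread, as did fibroblast-like and T and NK-like barcodes. Within PBS replicate 1 the order was another, since its 11 endothelial-like barcodes gave 32 Rsad2 UMIs (4428 CPM), against 1718 CPM in its neutrophil-like barcodes. In the 171 B/plasma-like barcodes of PBS replicate 1, Rsad2 was at 24.8 CPM.

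Isg15, taken the same way, averaged 2129 ± 1533 CPM in neutrophil-like, 832 ± 608 CPM in macrophage/monocyte-like, 737 ± 594 CPM in endothelial-like and 575 ± 611 CPM in fibroblast-like barcodes. Tumour epithelial-like barcodes averaged 265 ± 115 CPM and T and NK-like barcodes 189 ± 82.0 CPM. Neighbouring classes in this order overlapped. In FVIO-MHT replicate 2 and PBS replicate 1, which held both classes, Rsad2 differed more between neutrophil-like and tumour epithelial-like barcodes than Isg15 did.

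**Figure D2:**
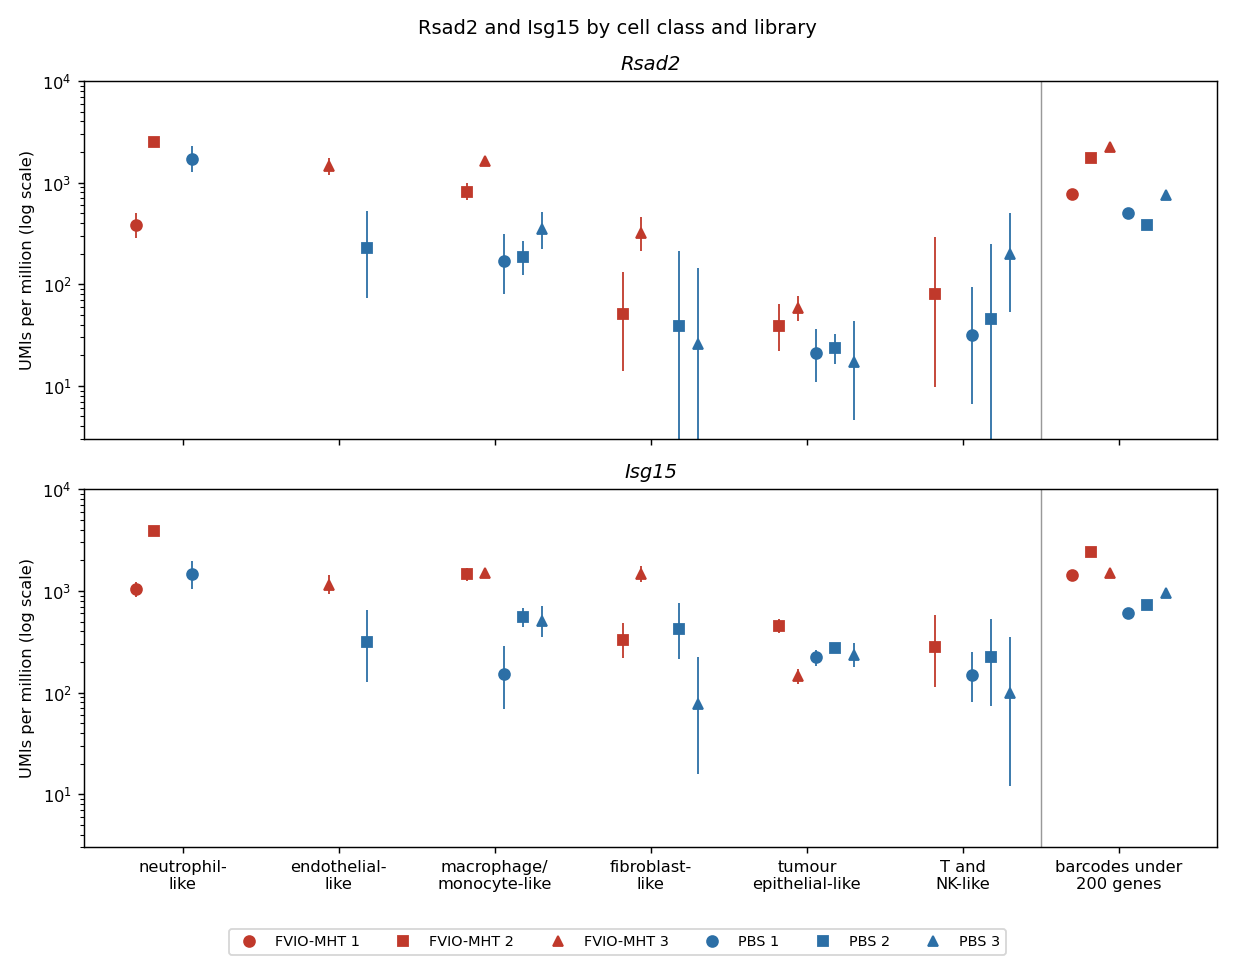
CPM of Rsad2 and Isg15 (log axis) by cell class and, at the right end, in barcodes under 200 genes; each point is 1 library with at least 20 barcodes of the class, bars on class points are Poisson 95% intervals, and FVIO-MHT stands left of PBS. Rsad2 lies between 17.1 and 58.5 CPM in tumour epithelial-like barcodes and above 100 CPM in macrophage/monocyte-like ones, while Isg15 is at 144 CPM or more in both.

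In macrophage/monocyte-like barcodes, Rsad2, Isg15, Irf7 and Zbp1 were each higher in both FVIO-MHT libraries than in all PBS libraries, and none of them passed the test adjusted over all genes. FVIO-MHT replicates 2 and 3 gave 219 and 446 such barcodes and PBS replicates 1, 2 and 3 gave 100, 204 and 94, with median UMIs of 498 and 386.5 against 445, 565 and 486.5. FVIO-MHT replicate 1 gave 9 and was left out. Rsad2 had 816 and 1634 CPM in FVIO-MHT (112 and 366 UMIs), against 169, 185 and 347 CPM in PBS (10, 29 and 24 UMIs). The log2 fold change was 2.42 ± 0.50, with an unadjusted p of 4.67e-04 and an adjusted p of 0.291 by edgeR.

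Isg15 had 1457 and 1495 CPM in FVIO-MHT macrophage/monocyte-like barcodes and 152, 549.8 and 506 CPM in PBS ones (log2 fold change 1.83 ± 0.50, unadjusted p = 0.00389 and adjusted p = 0.846 by edgeR). Irf7 had 248 and 223 CPM in FVIO-MHT and 50.7, 102 and 116 CPM in PBS (1.33 ± 0.46, unadjusted p = 0.0142 by edgeR). Zbp1 had 284 and 169.6 CPM in FVIO-MHT and 67.7, 147 and 101 CPM in PBS (0.99 ± 0.47, unadjusted p = 0.0591 by edgeR). For these genes the groups did not overlap. Ifit2 had 65.5 and 156 CPM in FVIO-MHT and 33.8, 89.5 and 57.9 CPM in PBS (log2 fold change 0.80 ± 0.60), and Oasl1 had 87.4 and 89.3 CPM in FVIO-MHT and 33.8, 128 and 43.4 CPM in PBS (0.18 ± 0.61). Both overlapped, and the fold change of Oasl1 turned to -0.07 without PBS replicate 1 and -0.03 without PBS replicate 3.

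The other 4 genes fell under the filter on low counts in this class and were not tested. Ifit1 had 43.7 and 121 CPM in FVIO-MHT and 0, 25.6 and 0 CPM in PBS, and Ifit3 had 21.8 and 75.9 CPM in FVIO-MHT and 0, 19.2 and 0 CPM in PBS. Usp18 had 14.6 and 44.6 CPM in FVIO-MHT and 0, 32 and 0 CPM in PBS, and Cmpk2 had 7.28 and 26.8 CPM in FVIO-MHT and 0, 25.6 and 0 CPM in PBS. For all 4, FVIO-MHT replicate 3 was above FVIO-MHT replicate 2, and PBS replicate 2 was the only PBS library with a UMI. A count of 0 allows up to 3 UMIs, so for none of the 4 is PBS replicate 1 shown to lie below FVIO-MHT replicate 2.

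Of the 6 genes tested in macrophage/monocyte-like barcodes, 0 passed the adjusted threshold, as did 0 of 3068 genes in all (0%). At an unadjusted p under 0.05, 3 of the 6 were higher in FVIO-MHT, against 1.96% of genes tested, and 127 genes (4.14%) reached it in either direction. Non-overlap with FVIO-MHT above was seen in 4 of 6, against 9.52% of genes tested. DESeq2 called Rsad2 among 4 genes, and without FVIO-MHT replicate 2 Rsad2 passed in edgeR (log2 fold change 2.86, adjusted p = 0.00744) among 34 genes. That fit leaves 1 FVIO-MHT library, whose spread is taken to be that of the PBS libraries. Over the 12 alternatives the adjusted p of Rsad2 ran from 1.67e-04 to 0.997.

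Different cells made up this class in different libraries. At a finer clustering, the cluster led by Cd14 and Arg1 held 177 of the barcodes of FVIO-MHT replicate 2 and 65, 139 and 66 of those of PBS replicates 1, 2 and 3. Within it Rsad2 had 875 CPM in FVIO-MHT replicate 2, against 258, 207 and 254 CPM in the PBS libraries. Isg15 had 1588 CPM in FVIO-MHT replicate 2, against 129, 604 and 562 CPM in the PBS libraries. A further 14 barcodes of FVIO-MHT replicate 3 in this cluster gave Rsad2 at 1872 CPM and Isg15 at 936 CPM. So in the cluster that FVIO-MHT replicate 2 shared with all PBS libraries, that FVIO-MHT library lay above each PBS library for both genes, with 1 library of at least 20 barcodes on that side and no test.

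FVIO-MHT replicate 3 drew most of its macrophage/monocyte-like barcodes from 2 other finer clusters. The cluster led by Ly6c2, Ccr2 and Ccl7, genes of inflammatory monocytes, held 252 of its barcodes, and Rsad2 there was at 3123 CPM and Isg15 at 2930 CPM. The few barcodes of other libraries in that cluster gave Rsad2 at 681 CPM in FVIO-MHT replicate 2 (21 barcodes), against 0 CPM in PBS replicate 1 (20 barcodes), 383 CPM in PBS replicate 2 (21 barcodes) and 0 CPM in PBS replicate 3 (18 barcodes). Rsad2 was itself among the 10 leading genes of this cluster. The cluster led by the complement genes C1qc and C1qa held 20 and 189 barcodes of FVIO-MHT replicates 2 and 3, with Rsad2 at 450.0 and 283 CPM. It held 14, 42 and 10 barcodes of PBS replicates 1, 2 and 3, with Rsad2 at 0, 37.6 and 1430.2 CPM. Isg15 in that cluster was at 386 and 310.0 CPM in FVIO-MHT and at 265, 376 and 286 CPM in PBS. Both genes overlapped between the groups there, and the highest Rsad2 value, that of PBS replicate 3, rests on 10 UMIs.

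Neutrophil markers were present in the macrophage/monocyte-like sums of every library. They summed to 3860.1 and 1147 CPM in FVIO-MHT replicates 2 and 3 and to 3332, 499 and 1316 CPM in PBS replicates 1, 2 and 3, with 9 to 11 of 12 detected and Ly6g at 0 in all 5. The groups overlapped in this sum. FVIO-MHT replicate 3, with the highest Rsad2, had the second lowest sum, and FVIO-MHT replicate 2 had the highest. The part of neutrophil RNA in the Rsad2 values was not tested. The share of macrophage/monocyte-like barcodes with at least 1 Rsad2 UMI was 24.7% and 23.5% in FVIO-MHT replicates 2 and 3, against 4.00%, 7.84% and 10.6% in the PBS libraries. Thinned to 300 UMIs per barcode, these shares were 17.3% and 19.5% in FVIO-MHT, against 1.25%, 3.31% and 6.33% in PBS. For Isg15 the thinned shares were 32.4% and 22.7% in FVIO-MHT, against 5.00%, 13.3% and 11.4% in PBS. For comparison, in T and NK-like barcodes (median 323.5 to 418 UMIs) the thinned share with Rsad2 was 2.94% in FVIO-MHT replicate 2 and 2.08%, 0% and 5.88% in PBS replicates 1, 2 and 3. In B/plasma-like barcodes of PBS replicate 1 (median 348 UMIs) it was 0.885%. The T and NK-like share of FVIO-MHT replicate 2 rests on 1 of 34 barcodes. FVIO-MHT replicate 3 held 8 T and NK-like barcodes, too few to give a share of its own.

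In tumour epithelial-like barcodes the level of Rsad2 was low in both groups, and FVIO-MHT replicate 3 had the lowest value of 5 other members. FVIO-MHT replicates 2 and 3 gave 200 and 514 barcodes and the PBS libraries gave 441, 1052 and 169. Rsad2 had 39.1 and 58.5 CPM in FVIO-MHT and 20.9, 23.3 and 17.1 CPM in PBS, without overlap (log2 fold change 1.13 ± 0.39, unadjusted p = 0.0171 and adjusted p = 0.466 by edgeR). Macrophage markers in these sums came to 128 and 261 CPM in FVIO-MHT and to 26.1, 138 and 158 CPM in PBS, with 12 and 14 of 14 markers detected in FVIO-MHT and 6, 13 and 11 in PBS. In FVIO-MHT replicate 2, C1qc and Adgre1 were at 0, and in PBS replicate 1, 8 markers including C1qa, Csf1r and Lyz2 were. The part of such RNA in the Rsad2 value was not tested. Thinned to 300 UMIs, the share of tumour epithelial-like barcodes with Rsad2 was 1.02% and 2.90% in FVIO-MHT and 0.476%, 0.787% and 0% in PBS. In FVIO-MHT replicate 2 and in PBS replicates 1 and 3 it lay below the T and NK-like share of the same library. Whether the Rsad2 UMIs are background there was not tested.

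Isg15 had 454 and 144 CPM in FVIO-MHT tumour epithelial-like barcodes, against 221, 272 and 234 CPM in PBS ones. Zbp1 had 128 and 11.2 CPM in FVIO-MHT, against 85.4, 135 and 111 CPM in PBS. Irf7 had 52.2 and 7.87 CPM in FVIO-MHT, against 26.1, 33.7 and 21.3 CPM in PBS. For all 3 genes FVIO-MHT replicate 3 was the lowest of the 5 libraries, and for Isg15 and Irf7 FVIO-MHT replicate 2 was the highest. Ifit1 had 70.4 and 12.4 CPM in FVIO-MHT and 31.4, 22.0 and 12.8 CPM in PBS, and Ifit3 had 41.7 and 3.37 CPM in FVIO-MHT and 19.2, 20.7 and 12.8 CPM in PBS. The same 2 libraries were again the extremes.

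Of 8 members tested in this class, 0 passed the adjusted threshold, as did 0 of 7539 genes (0%), and 1 of 8 had both FVIO-MHT libraries above all PBS libraries, against 17.3% of genes tested. At an unadjusted p under 0.05, 1 of 8 was higher in FVIO-MHT, against 3.98% of genes, and 9.26% of genes reached it in either direction. Without FVIO-MHT replicate 2, which again leaves 1 FVIO-MHT library with the spread of the PBS libraries assumed for it, Zbp1 passed as lower in FVIO-MHT (log2 fold change -3.34, adjusted p = 0.00602 by edgeR) among 238 genes, and the fold changes of Isg15, Ifit1 and Ifit2 turned negative, at -0.81, -0.96 and -1.09. Of the 514 tumour epithelial-like barcodes of FVIO-MHT replicate 3, 423 belonged to 1 cluster. Within that cluster Zbp1 had 141 and 12.3 CPM in FVIO-MHT replicates 2 and 3, against 141, 155 and 20.5 CPM in the PBS libraries, so the low value of replicate 3 was also there.

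The difference between the 2 classes was tested directly, with the library as a block. The FVIO-MHT over PBS log2 fold change was larger in macrophage/monocyte-like than in tumour epithelial-like barcodes by 2.51 ± 0.62 for Zbp1 (adjusted p = 0.129 by edgeR), by 2.06 ± 0.51 for Isg15 (adjusted p = 0.129), by 1.91 ± 0.71 for Irf7 and by 1.54 ± 0.51 for Rsad2 (adjusted p = 0.42). Of 7 members tested, 0 passed the adjusted threshold, against 3 of 5928 genes (0.0506%), and 4 had an unadjusted p under 0.05, against 6.09% of genes. Without FVIO-MHT replicate 2, which leaves 1 FVIO-MHT library whose spread is taken to be that of the PBS libraries, 67 genes passed. Among them were Isg15 (2.76, adjusted p = 2.05e-06), Zbp1 (3.99, adjusted p = 8.32e-06), Irf7 (3.21, adjusted p = 0.011) and Ifit1 (4.03, adjusted p = 0.0444).

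Neutrophil-like barcodes differed as much in Rsad2 and Isg15 within FVIO-MHT as between groups. FVIO-MHT replicates 1 and 2 gave 265 and 397 of them and PBS replicate 1 gave 66. Rsad2 had 383 and 2527 CPM in FVIO-MHT and 1718 CPM in PBS (log2 fold change -0.17 ± 1.06). Isg15 had 1038 and 3881 CPM in FVIO-MHT and 1467 CPM in PBS (0.85 ± 1.05). For both genes the single PBS library lay between the 2 FVIO-MHT libraries. Irf7 had 13.9 and 229 CPM in FVIO-MHT and 179 CPM in PBS, and Zbp1 had 20.9 and 346 CPM in FVIO-MHT and 215 CPM in PBS, in the same order.

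Oasl1 had 83.6 and 199 CPM in FVIO-MHT neutrophil-like barcodes and 35.8 CPM in PBS ones (log2 fold change 2.10 ± 1.36). Cmpk2 had 6.96 and 87.9 CPM in FVIO-MHT and was at 0 in the 66 PBS barcodes, where a count of 0 allows up to 107 CPM. Both FVIO-MHT values of Cmpk2 (1 and 15 UMIs) lay under that limit, so it is not shown to be higher in FVIO-MHT. By their values alone, Oasl1 and Cmpk2 were the 2 of 8 tested members with both FVIO-MHT libraries above PBS, against 30.5% of genes tested. In this class 0 of 2633 genes passed the adjusted threshold (0%), and at an unadjusted p under 0.05, 0 of 8 members and 66 genes (2.51%) did so. The PBS side is 1 library, whose spread is taken to be that of the FVIO-MHT libraries. Neutrophil-like barcodes of FVIO-MHT replicate 1 were almost all (262) of a cluster led by Cxcl3 and Retnlg. Those of FVIO-MHT replicate 2 were mostly (337) of one led by Cxcr2, Il1r2 and Slfn4. The 2 libraries also differed within the Cxcl3 cluster, of which FVIO-MHT replicate 2 held 60 barcodes. Rsad2 there was at 388 and 1162 CPM in FVIO-MHT replicates 1 and 2, and Isg15 at 986 and 2756 CPM. In the Cxcr2 cluster FVIO-MHT replicate 2 had Rsad2 at 2820 and Isg15 at 4123 CPM. PBS replicate 1 (49 barcodes) had 1797 and 1335 CPM there. The part of the clusters in the class values was not tested.

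Endothelial-like barcodes reached 20 in 1 library of each group, which allows no test. Rsad2 was at 1453 CPM in FVIO-MHT replicate 3 (112 barcodes) and at 226 CPM in PBS replicate 2 (27 barcodes), and Isg15 at 1157 and 317 CPM. In PBS replicate 1, however, 11 endothelial-like barcodes gave 32 Rsad2 UMIs, the level above FVIO-MHT replicate 3 that was given earlier. With that library counted, the groups overlapped in Rsad2. In fibroblast-like barcodes Isg15 had 332 and 1465 CPM in FVIO-MHT replicates 2 and 3 and 424 and 77.3 CPM in PBS replicates 2 and 3, with overlap (log2 fold change 1.77 ± 1.00, adjusted p = 0.998 by edgeR). Rsad2 there had 51.1 and 320.4 CPM in FVIO-MHT and 38.6 and 25.8 CPM in PBS and fell under the filter. In this class 0 of 2 tested members and 0 of 1131 genes passed (0%), and at an unadjusted p under 0.05, 0 members and 44 genes (3.89%) did. T and NK-like barcodes had Rsad2 at 81.1 CPM in FVIO-MHT replicate 2 and at 31.9, 45.2 and 197 CPM in the PBS libraries, and no member passed the filter there, where 0 of 715 genes passed the test (0%) and 35 (4.9%) had an unadjusted p under 0.05 by edgeR. In the 42 pericyte/smooth muscle-like barcodes of FVIO-MHT replicate 3, Rsad2 was at 318 CPM and Isg15 at 1193 CPM.

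UMIs of a barcode can come from its cell or from free RNA in droplets. The ratio of 2 genes does not measure how much of either is free RNA. The share of Rsad2 among the UMIs of Rsad2 and Isg15 together was set out by class, with exact binomial intervals that cover counting error only. In FVIO-MHT replicate 2 it was 39.4% in neutrophil-like barcodes (95% interval 36.5% to 42.4%), 35.9% in macrophage/monocyte-like (30.6% to 41.5%), and 7.94% in tumour epithelial-like barcodes (4.51% to 12.8%). In FVIO-MHT replicate 3 it was 52.2% in macrophage/monocyte-like (48.4% to 56.0%), 55.7% in endothelial-like (48.5% to 62.6%), 17.9% in fibroblast-like and 28.9% in tumour epithelial-like barcodes (22.4% to 36.1%). The share differed between classes of 1 library beyond counting error, which leaves the part of free RNA in any class unmeasured.

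In the PBS libraries the same share was 8.63%, 7.91% and 6.78% in tumour epithelial-like barcodes of replicates 1, 2 and 3, and 52.6%, 25.2% and 40.7% in their macrophage/monocyte-like barcodes. The tumour epithelial-like share of FVIO-MHT replicate 3 thus stood above the other 4 libraries, whose values ran from 6.78% to 8.63%. In the haemoglobin-led cluster of FVIO-MHT replicate 3 the share was 56.0% (51.0% to 61.0%), and in the barcodes of that library with fewer than 200 genes it was 59.9% (57.5% to 62.2%). In the haemoglobin-led cluster Rsad2 was at 518 CPM and Isg15 at 406 CPM in FVIO-MHT replicate 3, against 99.6 and 946 CPM in PBS replicate 2. Whether free RNA gave part of the Rsad2 UMIs in tumour epithelial-like barcodes of FVIO-MHT replicate 3 was not tested.

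Within single barcodes the 10 genes were detected together more often than independent detection would give. Of 6730 barcodes, 4303 had none of the 10 genes, 1592 had 1, 520 had 2 and 315 had at least 3, with a maximum of 9. For each of the 45 pairs the number of barcodes with both genes was set against the number expected if the 2 were detected independently within each library and class. All 45 pairs lay above expectation and 37 of them by more than 2-fold, with a median ratio of 2.56 and a range from 1.36 to 6.57. Pairs of other genes were not counted in this way, so these figures are not shown to be particular to the 10 genes. Some classes pool clusters that differ in these genes, which can also raise joint detection. Summed over pairs, 2163 joint detections stood against 1037 expected, a ratio of 2.09. By library the ratio was 2.17, 1.6 and 2.51 in FVIO-MHT replicates 1, 2 and 3 and 2.17, 2.60 and 2.09 in PBS replicates 1, 2 and 3, so it was above 1 in each of the 6 libraries and overlapped between groups.

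Depth is shared by all genes of a barcode and raises joint detection by itself. With each barcode thinned to 300 UMIs, which kept 5613 barcodes, 729 joint detections stood against 359.7 expected, a ratio of 2.03, and 43 of 45 pairs were above expectation. Of the 31 thinned pairs with at least 1 barcode expected, 19 lay above 2-fold. At full depth, the pairs with the highest ratios joined the less abundant genes. Ifit2 and Ifit3, neighbours on chromosome 19, were found together in 25 barcodes against 3.8 expected (6.57-fold), and whether reads shared between the Ifit copies add to this was not tested. Ifit3 and Usp18 shared 16 barcodes against 2.51 expected (6.38-fold), and Ifit1 and Cmpk2 shared 16 against 2.55 (6.27-fold). Rsad2 and its genomic neighbour Cmpk2 shared 33 against 10.0 expected (3.30-fold). Thinned, Ifit2 and Ifit3 shared 11 barcodes against 0.858 expected, Ifit3 and Usp18 3 against 0.407, and Ifit1 and Cmpk2 2 against 0.619. Rsad2 and Cmpk2 shared 11 against 4.09 (2.69-fold) after thinning.

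At full depth, Rsad2 and Isg15 were found together in 344 barcodes against 219 expected (1.57-fold), and after thinning in 182 against 108 (1.68-fold). In macrophage/monocyte-like barcodes they shared 119 against 57.9 expected (2.06-fold), in endothelial-like 17 against 9.58 (1.77-fold), in tumour epithelial-like 32 against 19.2 (1.67-fold) and in neutrophil-like barcodes 135 against 101 (1.34-fold). The lowest ratio of all pairs at full depth was that of Oasl1 and Zbp1, with 14 barcodes against 10.3 expected (1.36-fold).

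**Figure D3:**
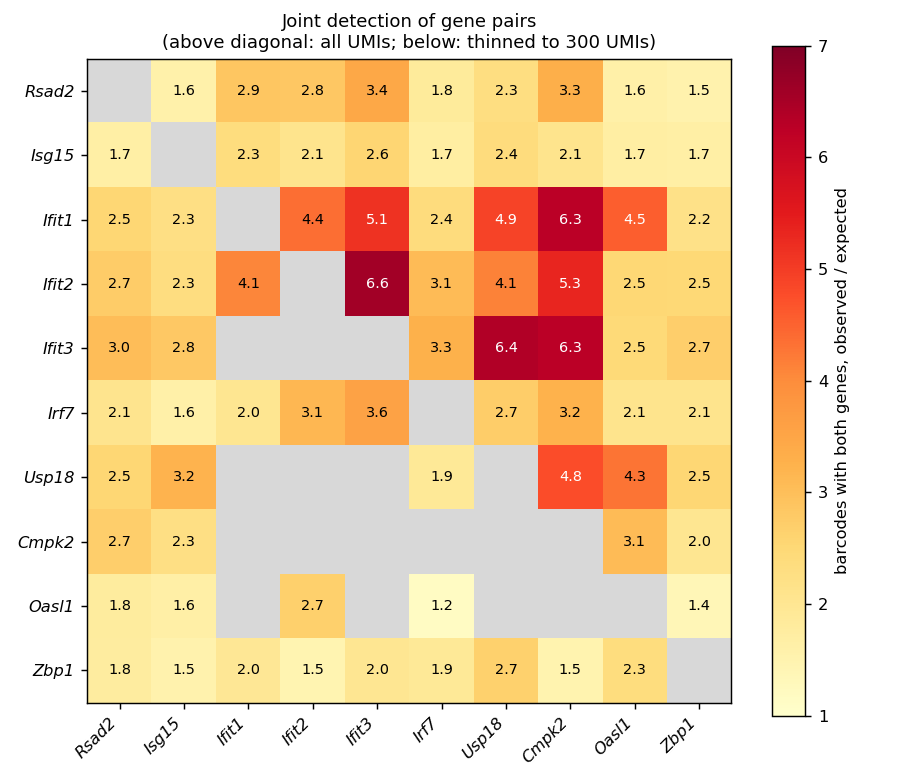
Barcodes with both genes of a pair divided by the number expected under independence within library and class, for all 45 pairs; all UMIs above the diagonal, barcodes thinned to 300 UMIs below it. Grey marks the diagonal and thinned pairs with fewer than 1 barcode expected. Above the diagonal, the highest ratios lie among Ifit1, Ifit2, Ifit3, Usp18 and Cmpk2, reaching 6.57.

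The number of genes per barcode also differed between libraries. In macrophage/monocyte-like barcodes, 24 of 219 (11%) and 57 of 446 (12.8%) had at least 3 of the 10 genes in FVIO-MHT replicates 2 and 3, against 1 of 100 (1.00%), 9 of 204 (4.41%) and 1 of 94 (1.06%) in PBS replicates 1, 2 and 3. The groups did not overlap, and after thinning the shares were 3.35% and 9.14% in FVIO-MHT, against 0%, 2.21% and 0% in PBS. A count of 0 allows up to 3 barcodes, so after thinning the PBS libraries at 0% are not shown to lie below FVIO-MHT replicate 2. Barcodes of 1 library are not replicates, so no test was run over them. Neutrophil-like barcodes had at least 3 genes in 1.13% and 17.6% in FVIO-MHT replicates 1 and 2 and in 10.6% in PBS replicate 1. In tumour epithelial-like barcodes the share was 9% and 0.973% in FVIO-MHT replicates 2 and 3, against 2.49%, 5.13% and 3.55% in the PBS libraries, with FVIO-MHT replicates at both ends.

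**Figure D4:**
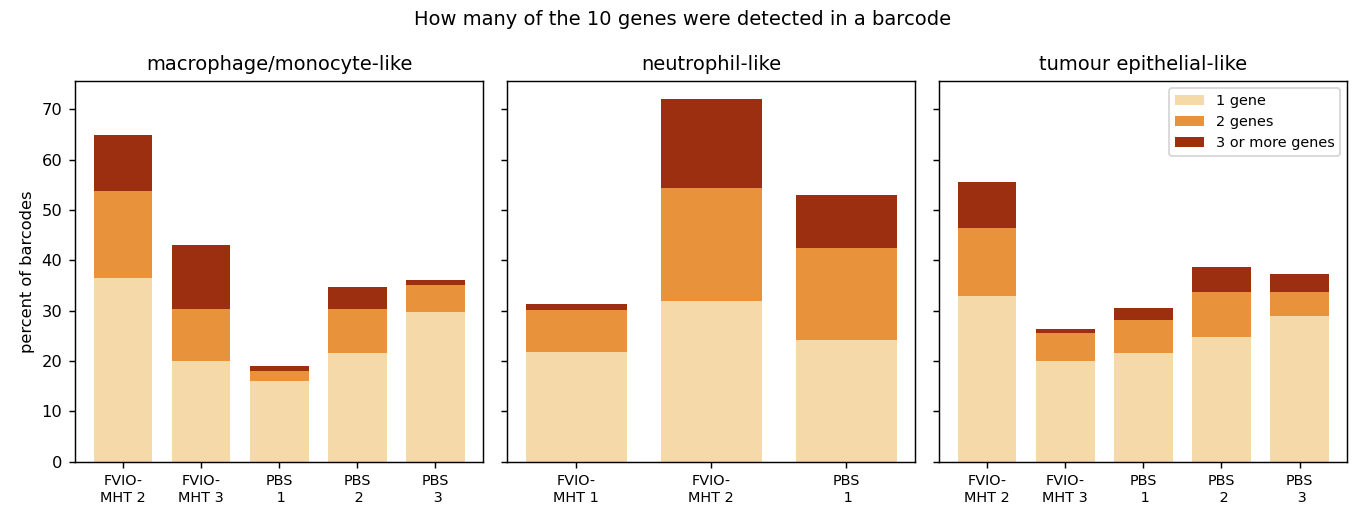
Percent of barcodes with 1, 2 and at least 3 of the 10 genes, by class and library, FVIO-MHT libraries left of PBS libraries. Macrophage/monocyte-like barcodes with at least 3 genes make up 11% and 12.8% in FVIO-MHT replicates 2 and 3 and 1.00% to 4.41% in PBS.

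With libraries pooled, barcodes with more of the 10 genes also held more RNA of other interferon-induced genes. In thinned macrophage/monocyte-like barcodes of all libraries, a list of other type I interferon-induced genes summed to 6008 CPM where none of the 10 genes was detected (592 barcodes), to 9980.3 CPM where 1 was (169 barcodes) and to 21731 CPM where at least 2 were (104 barcodes). The order held within FVIO-MHT replicate 2, at 8801, 10101 and 21528 CPM, and within FVIO-MHT replicate 3, at 4926, 10222 and 22762 CPM. Neutrophil-like barcodes of FVIO-MHT replicate 1 did not show it, with 3894 CPM for none (208 barcodes) and 3761 CPM for 1 gene (39 barcodes). In macrophage/monocyte-like barcodes of all libraries, a list leaning towards interferon gamma did not follow this order, with 17849 CPM for none, 22288 CPM for 1 and 10128 CPM for at least 2 genes. Within FVIO-MHT replicate 2 that list had 24494, 26465 and 18333 CPM, and within FVIO-MHT replicate 3 it had 6190.5, 7481 and 5619 CPM. These are sums over cells of the same libraries and are given as a description.

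Single genes of the lists were compared between macrophage/monocyte-like barcodes with at least 2 of the 10 genes and those with none. With libraries pooled, Ifi44 (5.46-fold), Ifi27l2a (5.31-fold), Ifi204, a DNA-binding protein (5.25-fold), and Slfn4 (5.22-fold) stood above. Pooled folds mix the number of genes with the library, so the 2 libraries with at least 10 barcodes on each side were also read alone, with 24 against 89 barcodes in FVIO-MHT replicate 2 and 70 against 224 in FVIO-MHT replicate 3. In these 2 libraries Ifi44 was at 3.18-fold and 4.8-fold, Ifi27l2a at 3.52-fold and 6.54-fold, Ifi204 at 4.64-fold and 5.66-fold, and Slfn4 at 4.94-fold and 4.48-fold. These 4 genes were thus higher in both libraries. The monocyte chemokine Ccl7 was at 6.46-fold pooled and 5.58-fold in FVIO-MHT replicate 3, but at 0.265-fold in FVIO-MHT replicate 2, where it had 1 UMI against 14. The chemokine Cxcl10 was at 1.05-fold and Ifitm1 at 0.259-fold, both pooled. In FVIO-MHT replicates 2 and 3 alone, Cxcl10 was at 0.247-fold (1 UMI against 15) and 4.48-fold. Ifitm1 was at 0.309-fold and 0.8-fold there, on few UMIs.

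Of the gamma-leaning genes, the 4 antigen presentation genes of class II were lower with libraries pooled, Cd74 at 0.431-fold, H2-Aa at 0.491-fold, H2-Ab1 at 0.426-fold and H2-Eb1 at 0.504-fold. In FVIO-MHT replicates 2 and 3 alone, Cd74 was at 0.537-fold and 0.582-fold, and H2-Eb1 at 0.618-fold and 1.4-fold. The other 6 were near or above 1 with libraries pooled, Gbp4 at 1.75-fold, Cd274 at 1.51-fold, Psmb8 at 1.33-fold, Psmb9 at 1.10-fold, Gbp7 at 1.02-fold and Cxcl9 at 0.949-fold. In neutrophil-like barcodes the gamma-leaning list did follow the 10 genes, at 3693 CPM for none, 6064 CPM for 1 and 10278 CPM for at least 2 genes with libraries pooled, and at 6751, 7443 and 11355 CPM within FVIO-MHT replicate 2. In that library (123 against 119 neutrophil-like barcodes), Slfn5 was at 3.8-fold, Gbp5 at 3.74-fold, Irgm1 at 2.79-fold, Parp14 at 2.53-fold and Nos2 at 0.215-fold.

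**Figure D5:**
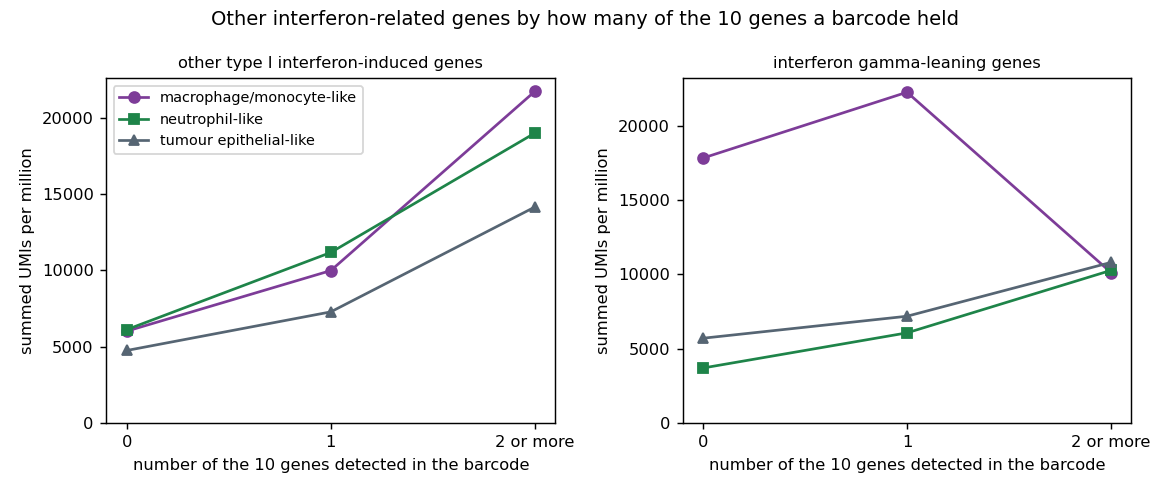
Summed CPM of the other type I interferon-induced genes, left, and the interferon gamma-leaning genes, right, in thinned barcodes by how many of the 10 genes they held (0, 1, 2 or more), over all libraries, 1 line per class. The left-hand sums climb in all 3 classes, and on the right the macrophage/monocyte-like line ends at its lowest point.

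The rest of the pathway was read from fixed lists in whole libraries, where no gene of any list passed the adjusted threshold. Of 13 receptors and signal transducers tested, 7 had a higher and 6 a lower value in FVIO-MHT, with a median log2 fold change of 0.34, against -0.04 over all genes tested. The receptor chain Ifnar2 had 408, 164 and 54.4 CPM in FVIO-MHT and 65.9, 51.7 and 93.4 CPM in PBS (log2 fold change 2.06 ± 0.87, unadjusted p = 0.0436 by edgeR). The FVIO-MHT values were in the order of the neutrophil-like shares of these 3 libraries and the PBS values were not. A link to that share was not tested. In macrophage/monocyte-like barcodes Ifnar2 had a log2 fold change of -0.24 ± 0.44. Stat2 had 44.1, 199 and 60.7 CPM in FVIO-MHT and 115, 212 and 189 CPM in PBS (-0.62 ± 0.58).

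Among 6 other interferon regulatory factors 2 were higher and 4 lower (median -0.25), with Irf5 at 0.98 ± 0.52 and Irf8 at -0.73 ± 0.54 on the log2 scale. Among 11 nucleic acid sensors and adaptors 5 were higher and 6 lower (median -0.09), with Aim2 at 1.48 ± 0.80 and the kinase Tbk1 at 0.88 ± 0.77. Of 47 other type I interferon-induced genes tested, out of 51 listed, 27 were higher and 20 lower (median 0.16), and 4 had an unadjusted p under 0.05 by edgeR, all higher. Slfn4, a gene of myeloid cells, had 778, 516 and 55.5 CPM in FVIO-MHT and 71.5, 12.9 and 46.7 CPM in PBS (3.85 ± 1.13, unadjusted p = 0.00836 by edgeR). Ccl7 had 93.8, 322 and 339 CPM in FVIO-MHT and 20.4, 42.5 and 136 CPM in PBS (2.04 ± 0.73, unadjusted p = 0.0212 by edgeR). The 22 gamma-leaning genes lay mostly the other way, with 3 higher and 19 lower and a median of -0.80, and 1 of them had an unadjusted p under 0.05 by edgeR. This was Gbp6, an interferon-induced GTPase, with 0, 19.98 and 2.86 CPM in FVIO-MHT and 18.2, 64.6 and 53.1 CPM in PBS (-2.29 ± 0.88, unadjusted p = 0.0291 by edgeR), where FVIO-MHT replicate 2 overlapped PBS replicate 1. Against the direction of that list, the checkpoint ligand Cd274 had 822, 391.8 and 8.01 CPM in FVIO-MHT and 79.5, 63.5 and 117 CPM in PBS (2.77 ± 1.30, unadjusted p = 0.0639 by edgeR). Its FVIO-MHT values were in the order of the neutrophil-like shares and its PBS values were not, and a link was not tested.

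In macrophage/monocyte-like barcodes the other type I interferon-induced genes had 24 of 32 tested higher and 8 lower, with a median log2 fold change of 0.32, against 1.16 for the 6 tested members and 0.01 over all genes. The gamma-leaning genes had 4 higher and 13 lower (median -0.43). In tumour epithelial-like barcodes the other type I interferon-induced genes had 6 higher and 34 lower (median -0.57) and the gamma-leaning genes 0 higher and 22 lower (median -0.89), against a median of 0.03 for the 8 members tested. No gene of these lists passed the adjusted threshold by edgeR in either class. Ccl7 in macrophage/monocyte-like barcodes had 226 and 1201 CPM in FVIO-MHT and 67.7, 95.9 and 174 CPM in PBS, without overlap (log2 fold change 2.73 ± 0.69, unadjusted p = 0.00215 and adjusted p = 0.734 by edgeR).

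Over 35 sums by library and class, the genes outside these lists whose level was most like the mean of the 10 genes were Clec4n (r = 0.656), Tspo (0.646), Sirpb1b (0.642), Trem1 (0.629) and Themis2 (0.626), among 7408 genes. The likeness is Pearson's r of log2(CPM + 10), and the sums share libraries and classes. Clec4n, a lectin receptor of myeloid cells, had 437 and 411 CPM in macrophage/monocyte-like barcodes of FVIO-MHT replicates 2 and 3, against 592, 262 and 463 CPM in the PBS libraries. In that class the FVIO-MHT values lay between the PBS values. How far its likeness lies in the classes or in the groups was not tested.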

How the data were processed

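Single-cell RNA was measured by Drop-seq in 3 FVIO-MHT and 3 PBS libraries. The deposited matrices hold UMI counts, whole numbers per gene and barcode, with no normalization by the authors. STAR 2.7.2b and the mm10 build are named in the submitters' processing notes, and the choice of barcodes and the counting of genes are not described there. Per the file headers, each matrix has 27998 rows, of which 65 repeats of a symbol were left out. Total counts per matrix ran from 678337 to 2207534 UMIs.

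Barcodes with at least 200 detected genes were kept without a limit on mitochondrial reads (highest share 18.09%). They were clustered in scanpy 1.11.5 (Python 3.11.15) on 2000 variable genes that excluded all interferon lists, 30 principal components, 15 neighbours and Leiden resolution 1 (leidenalg 0.10.2). A cluster was named when at least 3 markers and 40% of a list's markers were detected in 5% of its barcodes and stood 2-fold above the median of other clusters. That naming rule was settled after the leading genes had been seen. No doublet caller was run. An alternative left out the 5% of barcodes with most UMIs.

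Counts were summed per library, or per library and class with at least 20 barcodes, and tested in edgeR 4.0.16 (R 4.3.3; TMM, filterByExpr, quasi-likelihood test, Benjamini-Hochberg over all genes tested, threshold 0.05). A difference between classes was tested as an interaction with library as block. DESeq2 1.42.0 was an alternative. The tests were checked on simulated data. CPM is UMIs per 1000000 UMIs of the same barcodes. Intervals are exact 95% intervals for counting error only, and a count of 0 allows up to 3 counts. Thinning drew 300 UMIs per barcode and left out shallower ones, keeping 71.5% to 98.2% of barcodes per library.

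Besides the 10 genes, the text names the 2 genes of each other list with the lowest p in whole libraries, and the 5 unlisted genes most correlated with the mean of the 10. Genes of other lists named in the within-barcode comparison were chosen after their values were seen. The 10 genes and all lists were chosen with earlier results of these data known.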

Additional observations from a re-analysis of the deposited data

Results flagged for a closer look

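Barcodes under 200 detected genes, which the comparisons above leave out, also carried Rsad2 and Isg15 above the level of the PBS libraries. Rsad2 had 779, 1754 and 2228 CPM in FVIO-MHT replicates 1, 2 and 3, against 501, 383 and 762 CPM in PBS replicates 1, 2 and 3, a ratio of means of 2.89. Isg15 had 1430.2, 2424 and 1492 CPM in FVIO-MHT libraries and 608, 729.5 and 949 CPM in PBS libraries, a ratio of 2.34. These 2 of the 10 genes had every FVIO-MHT library above every PBS library there, against 1.77% of 8603 genes. The barcodes had a median of 84, 105 and 176 UMIs in FVIO-MHT and 117, 48 and 32 UMIs in PBS. The neutrophil markers summed to 77193, 34653 and 2648 CPM in them in FVIO-MHT and to 17319.8, 3747 and 9519 CPM in PBS, with 11 or 12 of 12 detected, and their part in the difference was not tested.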

How the results depend on the processing

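Over 445 alternatives on 41 results for single genes of the 10, 402 kept direction and side of the threshold, 11 newly passed it and 32 changed sign. Counts of genes passing in whole libraries, 0 in the reported fit, were 86 by DESeq2 (2 of the 10 genes) and 2 without the filter on low counts. In macrophage/monocyte-like barcodes (0 reported) they were 4 by DESeq2 (1 of the 10), 20 without the filter (2 of the 10: Rsad2 and Isg15) and 0 to 34 leaving out single libraries (0 to 1 of the 10). In tumour epithelial-like barcodes (0 reported) they were 38 by DESeq2, 152 without the filter and 0 to 238 leaving out libraries (0 to 1 of the 10). In neutrophil-like barcodes they were 1 without the filter and 2 without the 5% of barcodes with most UMIs. In fibroblast-like barcodes they were 3 by DESeq2, 7 without the filter, 1 without shared barcodes and 0 to 23 leaving out libraries, and in T and NK-like barcodes 0 to 15 leaving out libraries (15 without PBS replicate 1). The difference between classes (3 reported) gave 2 to 67 genes leaving out libraries (9 without FVIO-MHT replicate 3, 10 without PBS replicate 1) and 0 to 4 of the 10.

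Deviations from the group means correlated at 0.174, -0.03 and -0.11 between libraries of equal replicate number 1, 2 and 3. Of the 3 FVIO-MHT libraries, 2 correlated best with a PBS library of another number. This does not settle whether equal numbers are paired, since the libraries also differed in their cells, and the labels do not say. With the replicate block, 6 genes passed in macrophage/monocyte-like, 110 in tumour epithelial-like and 3 in fibroblast-like barcodes, none of them among the 10, and whole libraries stayed at 0. With that block the tumour epithelial-like log2 fold change was -0.071 for Isg15 and 0.18 for Ifit3.

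The other sign changes were the following log2 fold changes. Leaving out single libraries gave -1.25 to 0.24 for Zbp1 and -0.075 to 0.96 for Usp18 in whole libraries, and -0.074 to 0.20 for Oasl1 in macrophage/monocyte-like barcodes. In tumour epithelial-like barcodes it gave -0.81 to 0.75 for Isg15, -0.96 to 1.44 for Ifit1, -1.09 to 0.94 for Ifit2, -2.46 to 0.99 for Ifit3, -1.90 to 0.71 for Irf7, -1.07 to 0.32 for Usp18 and -3.34 to 0.047 for Zbp1. For the difference between classes it gave -1.03 to 2.31 for Ifit2 and -0.42 to 1.59 for Oasl1. Without the 5% of barcodes with most UMIs, Zbp1 in whole libraries was at 0.045 and the Oasl1 difference at -0.69. With at least 400 genes per barcode, Usp18 was at -0.052. At resolution 2 the Oasl1 difference was at -5.44e-04 and tumour epithelial-like Ifit3 at 0.014. By DESeq2, tumour epithelial-like Ifit3 was at 0.10 and neutrophil-like Rsad2 and Zbp1 at 0.17 and 0.15. Without the filter, neutrophil-like Rsad2, Zbp1 and Ifit1 were at 0.26, 0.27 and 0.046. The cause of these shifts was not tested.

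Thinning took the mean share of tumour epithelial-like barcodes with Rsad2 to 1.04%, against 4.48% at full depth, and with Isg15 to 6.78%, against 22.6%. The ratio of joint to expected detection ran from 1.93 to 2.48 leaving out libraries. The block and leave-one-out fits of neutrophil-like barcodes, the block fit and the fit without FVIO-MHT replicate 2 of T and NK-like barcodes, and any test in endothelial-like barcodes were not run, for want of libraries with 20 barcodes. Alternatives on the difference between classes, shared barcodes, the haemoglobin-led cluster and single libraries for levels and joint detection were chosen after seeing the data. With 3 libraries a group, class sums of 10 to 366 Rsad2 UMIs in macrophage/monocyte-like barcodes limit what can be told apart.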
